A study of Homo sapiens with 6 samples.

Results

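The genes described here are 41 chaperones, folding enzymes, sensors and degradation factors of the endoplasmic reticulum (ER), taken by symbol from the 60676 genes listed for HT29 cells. HT29 is an established human colorectal adenocarcinoma line. The 3 conditions, with 2 libraries each, were control medium (untreated), histidine depletion and tryptophan depletion, each for 48 h. The questions were how these transcripts differed from untreated cells after each depletion and whether the depletions differed from each other. All 41 symbols were found in the gene annotation (gencode 44, GRCh38).

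The cells of all 3 conditions were of the same line and carried no further treatment that the labels name. Histidine was left out of an RPMI-based medium and tryptophan out of a DMEM F-12-based one. Both depleted media were given dialyzed serum. The base and serum of the control medium are not given for RNA-seq in the sources used here, so that base medium, serum and depletion cannot be told apart. In bulk RNA, a change in the make-up of the cells and a change in RNA per cell cannot be told apart either. Nothing in these sources says that the replicates were separate cultures, so the spread between libraries behind the p-values may be technical. The libraries held 46390819 to 64388876 reads.

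Proteins of the secretory pathway enter the ER through the Sec61 channel, are folded by Hsp70 and Hsp90 chaperones, lectin chaperones and disulphide isomerases, and are sent back to the cytosol for degradation when folding fails. When unfolded protein builds up, the sensors IRE1 (the product of ERN1), ATF6 and PERK set off the unfolded protein response. IRE1 splices XBP1 mRNA, ATF6 is cut in the Golgi to release a transcription factor, and PERK phosphorylates eIF2α, which the amino acid sensor GCN2 also does. Secretory cells of the intestinal epithelium depend on this response. Gene counts do not show XBP1 splicing, ATF6 cleavage or eIF2α phosphorylation.

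Promoters were searched for the sequence elements through which ATF6 and XBP1 are known to act. The letters were those of the ER stress response element ERSE (CCAAT and CCACG with 9 free bases between them), of ERSE-II (ATTGG and CCACG with 1 free base between them), of the core of the unfolded protein response element UPRE (TGACGTG) and of CARE (TGATGNAA), the element of CHOP and ATF4, on both strands of the 250 bases before the gene start. RefSeq promoters (GRCh38.p14) were at hand for 37 of the 41 members, with 46 start sites. An ERSE stood before 8 of the 37 members (21.6%) and before 25 of the 27305 genes in the RefSeq table (0.0916%), or 26 of its 35116 promoters (0.074%). The 8 were HSPA5, HSP90B1, CALR, CANX, PDIA6, CRELD2, ERO1B and XBP1. An ERSE-II stood before 3 members, HERPUD1, HYOU1 and SDF2L1 (8.11%), and before 18 genes in all (0.0659%). The UPRE core was found before 3 members, DNAJC10, HYOU1 and TXNDC5 (8.11%), against 2.05% of all genes, and CARE before HERPUD1 (2.7%), against 3.89%. A match is a description of these letters and not a measured binding site. The list holds known targets of these factors, so that the shares describe it and are no test.

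The windows of HSPA5, HSP90B1, XBP1, HERPUD1 and HYOU1 are shown because they hold the matches of the best known chaperone and target genes, and that of CLGN because its transcript had the largest fold change. Capitals mark the letters that match ERSE (the 9 free bases between its parts stay in lower case), ERSE-II, UPRE or CARE. Each runs 5′ to 3′ on the gene's strand and ends at the base before the RefSeq gene start.

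HSPA5, chr9:125241344-125241593, strand -: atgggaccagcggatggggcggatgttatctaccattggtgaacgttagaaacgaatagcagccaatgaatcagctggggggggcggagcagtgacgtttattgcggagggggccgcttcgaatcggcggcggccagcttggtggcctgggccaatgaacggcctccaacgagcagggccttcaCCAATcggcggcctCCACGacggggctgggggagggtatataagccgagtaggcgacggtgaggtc
HSP90B1, chr12:103930160-103930409, strand +: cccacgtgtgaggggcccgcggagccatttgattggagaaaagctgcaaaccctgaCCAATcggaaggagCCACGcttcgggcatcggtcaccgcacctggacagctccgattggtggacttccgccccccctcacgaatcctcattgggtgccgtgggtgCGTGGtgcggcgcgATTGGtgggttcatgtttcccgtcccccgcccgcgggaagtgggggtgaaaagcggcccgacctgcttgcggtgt
XBP1, chr22:28800570-28800819, strand -: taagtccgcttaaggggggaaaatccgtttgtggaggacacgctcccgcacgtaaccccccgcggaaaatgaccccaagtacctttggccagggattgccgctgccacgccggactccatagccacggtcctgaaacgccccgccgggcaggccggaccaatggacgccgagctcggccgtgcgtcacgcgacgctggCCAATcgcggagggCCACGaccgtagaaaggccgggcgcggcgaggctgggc
HERPUD1, chr16:56931892-56932141, strand +: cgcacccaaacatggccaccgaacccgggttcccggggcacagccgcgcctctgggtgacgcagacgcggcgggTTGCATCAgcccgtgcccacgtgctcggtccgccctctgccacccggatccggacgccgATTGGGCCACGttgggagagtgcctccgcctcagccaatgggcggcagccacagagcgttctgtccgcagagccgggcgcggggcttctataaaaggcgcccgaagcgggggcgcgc
HYOU1, chr11:119057206-119057455, strand -: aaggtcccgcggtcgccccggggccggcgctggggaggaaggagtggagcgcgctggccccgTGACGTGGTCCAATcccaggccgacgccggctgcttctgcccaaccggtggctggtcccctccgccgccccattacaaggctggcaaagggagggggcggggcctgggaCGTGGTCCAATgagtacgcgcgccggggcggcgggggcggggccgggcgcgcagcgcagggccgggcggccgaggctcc
CLGN, chr4:140427649-140427898, strand -: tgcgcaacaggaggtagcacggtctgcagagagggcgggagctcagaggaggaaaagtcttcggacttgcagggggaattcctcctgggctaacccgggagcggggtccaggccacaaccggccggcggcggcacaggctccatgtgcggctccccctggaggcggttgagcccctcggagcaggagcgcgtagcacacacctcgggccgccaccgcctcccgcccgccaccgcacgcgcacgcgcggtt

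The match in HSPA5 began 66 bases before the gene start, and that in XBP1, whose second RefSeq start site had none, 52 bases before it. HSP90B1 held 2 ERSE matches, at 194 and 89 bases, of which the nearer lay on the opposite strand. HYOU1 held 2 ERSE-II matches on the opposite strand, at 185 and 79 bases, and the UPRE core at 188 bases overlapped the farther of them. HERPUD1 held its ERSE-II at 117 and its CARE at 176 bases. None of these letters was found before CLGN.

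In the whole group, 38 of the 40 members tested were called higher and 0 lower after tryptophan depletion, whereas 27 were higher and 8 lower after histidine depletion. For the test, limma was run on log2(normalized count + 1) across all genes with a mean of at least 10, and a gene is called at a Benjamini-Hochberg adjusted p under 0.05. The spread is largely pooled over genes. Total degrees of freedom were 23.2 for histidine depletion, 137 for tryptophan depletion and 16.4 for the direct comparison, where the libraries alone gave 2, 2 and 3. The sizes of p-values can therefore not be compared between the depletions. DERL3, with 0 to 5 reads in the libraries, was not tested. The call was frequent at these depths: after histidine depletion 39.1% of the 18288 genes tested were called higher and 38.2% lower, against 67.5% and 20% of the members. After tryptophan depletion 36.1% of 17960 genes were called higher and 34.8% lower, against 95% and 0% of the members.

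With a log2 fold change of at least 1 added, 7 members were higher and 2 lower after histidine depletion (17.5% and 5%, against 16.4% and 16.1% of all genes tested). The share of members higher was thus close to that of all genes. After tryptophan depletion 14 members were higher past this limit and 0 lower (35% and 0%, against 10.0% and 10.4% of all genes). The median log2 fold change of the members was 0.32 after histidine depletion and 0.80 after tryptophan depletion, against 0.010 and 0.013 over all genes tested. Under quantile normalization the median after histidine depletion fell to 0.13, with 22 members called higher and 12 lower, while that after tryptophan depletion was 0.73.

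Of all reads, the members together took 0.906% and 0.899% in untreated cells, 1.11% and 1.09% without histidine, and 1.61% and 1.62% without tryptophan. Both comparisons share the untreated libraries. Of the 40 members, 27 were called higher in both, 7 were lower after histidine and higher after tryptophan depletion (CLGN, CRELD2, DNAJC10, EDEM2, PDIA4, SDF2L1 and WFS1), and 4 were higher after tryptophan depletion and not called after histidine depletion (ATF6, EDEM1, PDIA6 and SEC61A1). ATF6B was lower after histidine depletion and not called after tryptophan depletion, and TXNDC5 was called in neither. Of the 17470 genes tested in both tables, 19.6% were higher in both, 9.44% were lower without histidine and higher without tryptophan, and 6.66% were not called without histidine and higher without tryptophan. The members' shares in these classes were 67.5%, 17.5% and 10.0%.

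**Figure D1:**
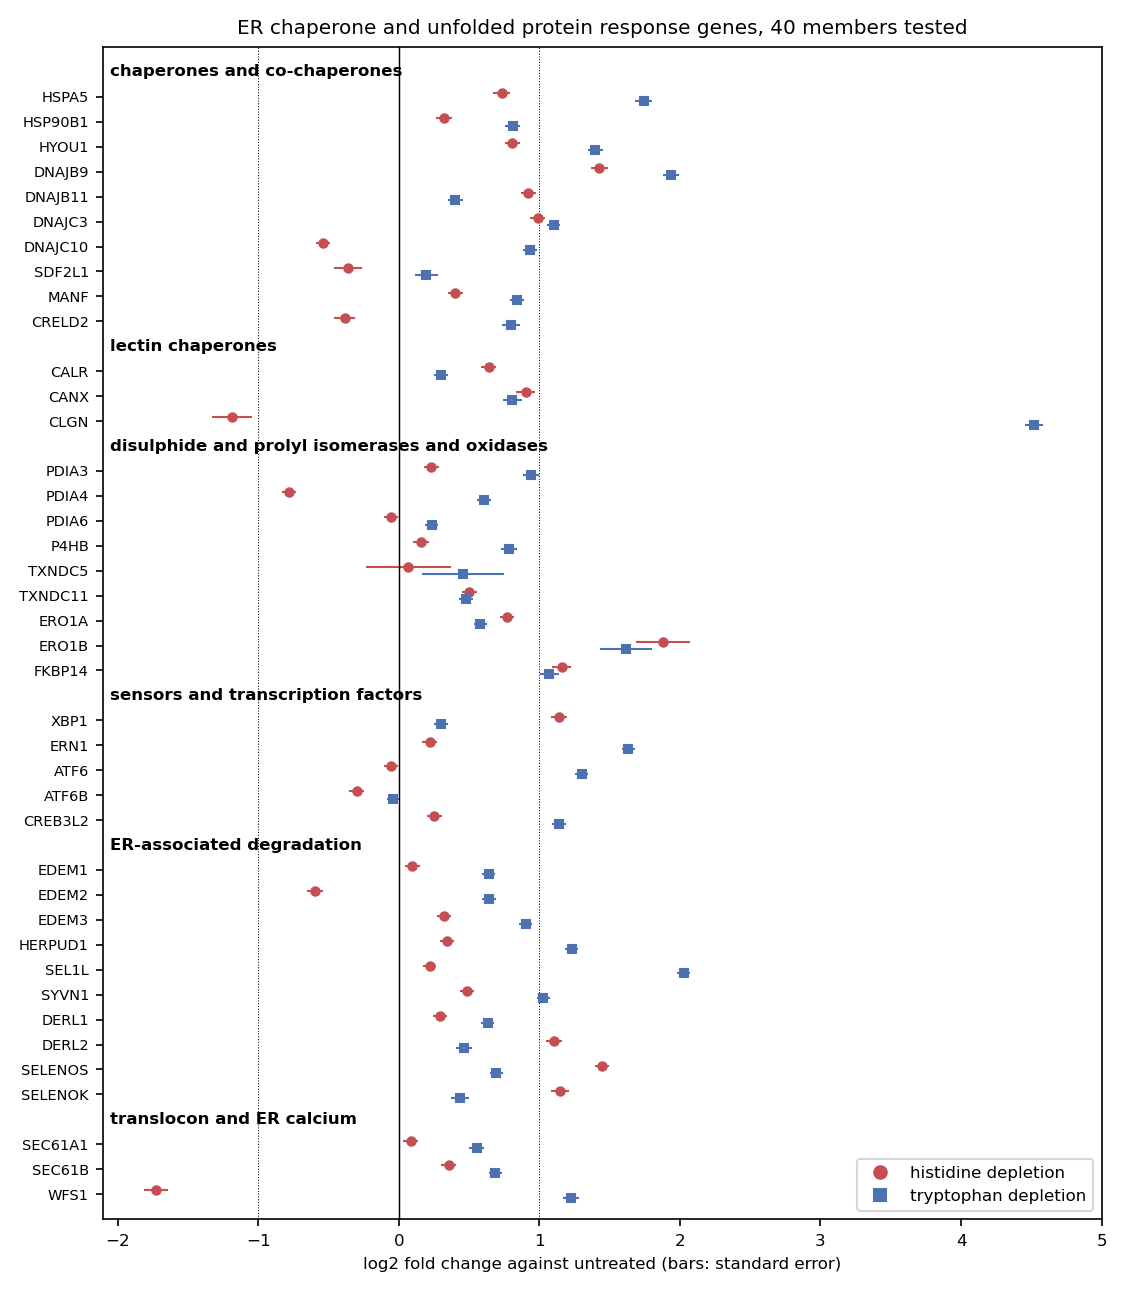
The 40 members tested, by role, with the log2 fold change against untreated on the x axis for histidine depletion (circles) and tryptophan depletion (squares), and bars for the standard error. The squares lie to the right of 0 for all members but ATF6B (-0.04), while 10 circles lie to its left, those of WFS1 and CLGN farthest.

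Levels in the libraries are given below as normalized counts, after scaling of all 6 libraries together, and log2 fold changes come from the fit within the table of each depletion. The counts by role below are of small sets. They stand beside 39.1% of all genes called higher and 38.2% lower without histidine, and 36.1% and 34.8% without tryptophan. Among the chaperones and co-chaperones, all 10 were higher after tryptophan depletion, while 7 were higher and 3 lower after histidine depletion. HSPA5 (BiP), the Hsp70 of the ER and the chaperone that holds the sensors inactive, stood at 32206 and 34388 normalized counts in untreated cells, at 55703 and 54184 without histidine, and at 110556 and 113155 without tryptophan. The mean was lowest in untreated cells and highest without tryptophan. The log2 fold change of HSPA5 was 0.73 ± 0.06 (SE, n = 2 against 2) after histidine depletion (limma adjusted p = 3.6e-11) and 1.74 ± 0.06 after tryptophan depletion (adjusted p = 6.9e-60). A processed copy, HSPA5P1, was given 125 to 533 reads, and how reads that fit both were counted is not given in the sources used here.

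HSP90B1 (GRP94), the Hsp90 of the ER, held 36697 and 37842 normalized counts in untreated cells, 47002 and 45449 without histidine, and 64828 and 66511 without tryptophan. Its order was that of HSPA5, with smaller log2 fold changes of 0.32 ± 0.06 (adjusted p = 2.0e-05) and 0.81 ± 0.06 (adjusted p = 2.5e-28). Under quantile normalization its log2 fold change after histidine depletion was 0.0072 and not called (adjusted p = 0.851). HYOU1 (GRP170), a nucleotide exchange factor for HSPA5, rose from 23829 and 23359 to 40923 and 41254 without histidine, and to 62169 and 62983 without tryptophan. Its log2 fold changes were 0.81 ± 0.05 and 1.40 ± 0.05.

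DNAJB9 (ERdj4), a J-domain partner of HSPA5 that also represses IRE1, was at 1037 and 1190 normalized counts in untreated cells, at 3008 and 2937 without histidine and at 4169 and 4389 without tryptophan. It rose in both depletions, with log2 fold changes of 1.43 ± 0.06 (adjusted p = 4.7e-16) and 1.94 ± 0.05 (adjusted p = 6.2e-70). DNAJC3 (p58IPK), an inhibitor of PERK, rose from 9515 and 10300 to 19882 and 19204 without histidine and to 21345 and 21396 without tryptophan. Its log2 fold changes, 0.99 ± 0.05 and 1.10 ± 0.05, lay close together. DNAJB11, another partner of HSPA5, had the larger change without histidine (0.92 ± 0.05 against 0.40 ± 0.05), and MANF, a secreted ER protein, the larger without tryptophan (0.84 ± 0.05 against 0.40 ± 0.05).

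DNAJC10 (ERdj5), a reductase that prepares proteins for degradation, moved in opposite directions. It held 17148 and 17706 normalized counts in untreated cells, fell to 11934 and 11887 without histidine and rose to 33097 and 33773 without tryptophan. Its log2 fold changes were -0.54 ± 0.05 (adjusted p = 6.0e-10) and 0.93 ± 0.05 (adjusted p = 2.9e-38). CRELD2, a stress-inducible ER protein, was at 749 and 722 in untreated cells, at 549 and 570 without histidine and at 1297 and 1276 without tryptophan (-0.38 ± 0.08 and 0.80 ± 0.06 on the log2 scale). SDF2L1, a component of the HSPA5 chaperone complex, had small changes of -0.36 ± 0.10 (adjusted p = 0.0021) and 0.20 ± 0.08 (adjusted p = 0.026). With a library left out in turn, these values ranged from -0.502 to -0.215 and from 0.054 to 0.336, and both ends came from leaving out an untreated library. The call after histidine depletion was lost without untreated replicate 2 (-0.215, adjusted p = 0.0804), with no trend (0.0838) and under quantile normalization (-0.128, adjusted p = 0.262). Its call after tryptophan depletion was lost without untreated replicate 1 (0.054, adjusted p = 0.569) and, at 0.161 to 0.229, without tryptophan-depleted replicate 1 (adjusted p = 0.192) or 2 (0.0555). At 0.178 to 0.202 it was lost in DESeq2 (adjusted p = 0.217) and edgeR (0.06), in a fit on all 6 libraries (0.0667), with no filter (0.1) and with no trend (0.233).

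**Figure D2:**
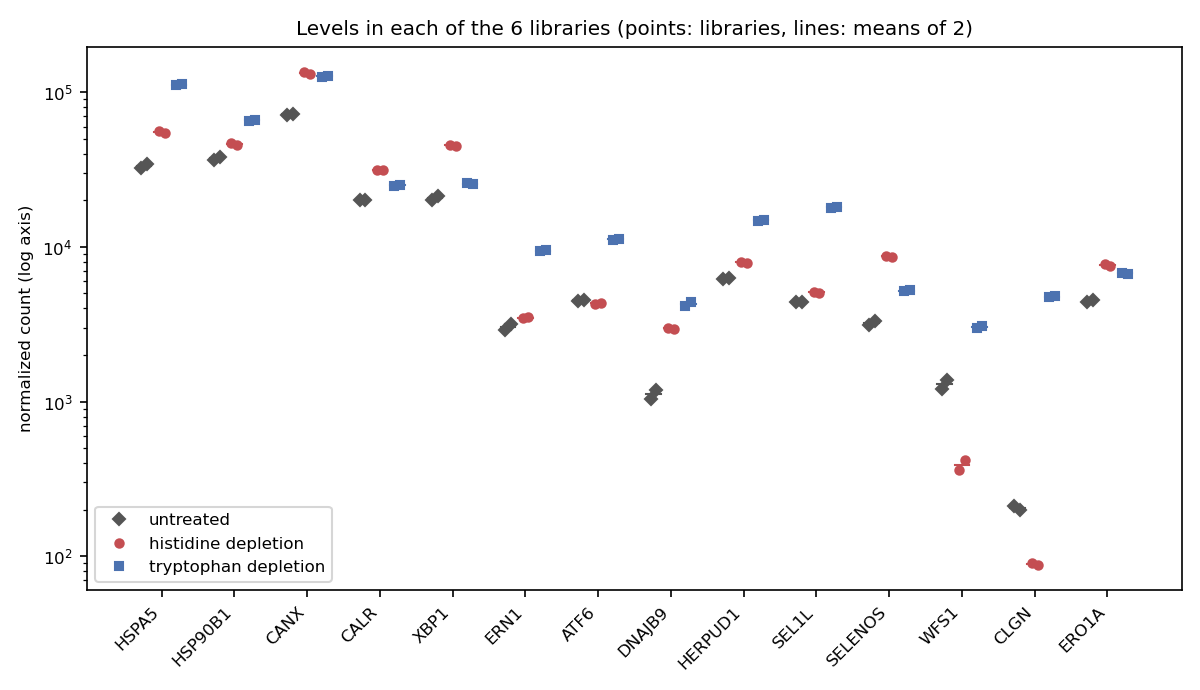
Normalized counts of 14 members in each of the 6 libraries, on a log axis, with a point for each library and a line for the mean of 2. The libraries of a condition lie close to each other, and CLGN spans the widest range, from 87.5 in a histidine-depleted to 4779 in a tryptophan-depleted library.

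The lectin chaperones bind glycoproteins whose sugars have been trimmed. CANX (calnexin), the membrane-bound form, rose from 71117 and 72353 normalized counts in untreated cells to 135683 and 131166 without histidine and to 125068 and 127648 without tryptophan. Its log2 fold changes were 0.90 ± 0.07 and 0.81 ± 0.06. CALR (calreticulin), the soluble form, stood at 20183 and 20119 in untreated cells, at 31228 and 31183 without histidine and at 24838 and 25103 without tryptophan. CALR rose in both, with 0.64 ± 0.05 after histidine depletion (adjusted p = 5.3e-11) and 0.30 ± 0.05 after tryptophan depletion (adjusted p = 2.8e-08).

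CLGN (calmegin), a calnexin relative known from male germ cells, had the largest change of any member. It was at 211 and 199 normalized counts in untreated cells, at 90.3 and 87.5 without histidine and at 4714 and 4779 without tryptophan. The mean rose 23.2-fold without tryptophan, a log2 fold change of 4.52 ± 0.06 (adjusted p = 2.8e-106), and fell by 1.19 ± 0.14 on the log2 scale without histidine (adjusted p = 5.2e-08). CLGN ranked 38 among the members per kb of transcript in untreated cells and 24 without tryptophan. It lies at chr4:140388453-140427661 on the minus strand, and no other annotated gene shares its exons.

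Of the 9 disulphide and prolyl isomerases and oxidases, 8 were higher after tryptophan depletion, and 6 were higher and 1 lower after histidine depletion. PDIA4 (ERp72), a disulphide isomerase, was at 23397 and 23271 normalized counts in untreated cells, at 13299 and 13671 without histidine and at 35703 and 35724 without tryptophan. It fell by 0.78 ± 0.05 on the log2 scale without histidine (adjusted p = 6.2e-13) and rose by 0.61 ± 0.05 without tryptophan (adjusted p = 5.6e-22). PDIA3 (ERp57), the isomerase that works with the lectin chaperones, and P4HB (PDI), the classical disulphide isomerase, had log2 fold changes of 0.94 ± 0.06 and 0.78 ± 0.06 without tryptophan.

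Without histidine PDIA3 and P4HB were called higher at 0.23 ± 0.06 and 0.16 ± 0.06 (adjusted p = 0.00065 and 0.014). Quantile normalization turned both to lower, at -0.07 and -0.16. Leaving out histidine-depleted replicate 1 or 2 ended the calls at nearly the same values, with 0.21 and 0.256 for PDIA3 (adjusted p = 0.143 and 0.0741) and 0.162 and 0.153 for P4HB (adjusted p = 0.279 and 0.309). With no trend the call of P4HB was also lost (0.157, adjusted p = 0.0624). PDIA6, an isomerase known to restrain IRE1, was not called after histidine depletion (-0.05, 95% interval -0.16 to 0.05) and was higher after tryptophan depletion at 0.23 ± 0.05. Under quantile normalization PDIA6 was called lower after histidine depletion (-0.321, adjusted p = 9.28e-06). For PDIA6, 25.2% of the exon bases are also covered by a gene on the opposite strand, and use of the strand in counting is not given in the sources used here. Pseudogenes of PDIA3 took 1206 reads on average, against 51132 of PDIA3 itself.

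The oxidase ERO1A, which passes electrons from disulphide isomerases to oxygen, rose from 4435 and 4567 normalized counts to 7782 and 7474 without histidine and to 6821 and 6709 without tryptophan (0.77 ± 0.05 and 0.58 ± 0.05 on the log2 scale). Its paralogue ERO1B was low, at 59.0 and 38.8 in untreated cells, 168 and 188 without histidine and 142 and 158 without tryptophan. The log2 fold changes of ERO1B were 1.88 ± 0.19 (adjusted p = 2.6e-09), the largest rise of a member without histidine, and 1.62 ± 0.18 (adjusted p = 2.5e-14). FKBP14, a prolyl isomerase for collagens, rose from 642 and 669 to 1522 and 1392 without histidine and to 1391 and 1382 without tryptophan, at 1.16 ± 0.07 and 1.07 ± 0.06.

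TXNDC11, a disulphide reductase-like protein that also rose in both, had 0.50 ± 0.05 and 0.48 ± 0.05. TXNDC5 (ERp46), a further disulphide isomerase, held only 21.9 to 35.2 normalized counts and was not called in either comparison (0.07, 95% interval -0.56 to 0.70, and 0.46, interval -0.12 to 1.03). Its exons are shared for 60.9% of their bases with the readthrough gene BLOC1S5-TXNDC5, which had 0 reads in every library, and reads that fall on both genes could have gone uncounted. The level of TXNDC5 is therefore uncertain.

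Of the 5 sensors and transcription factors, 4 were higher after tryptophan depletion and 3 after histidine depletion, and of the 3 that rose in both only XBP1 had its larger change without histidine. XBP1, whose spliced mRNA encodes the factor that drives chaperone and degradation genes, was at 20121 and 21432 normalized counts in untreated cells, at 45834 and 45205 without histidine and at 25696 and 25623 without tryptophan. It rose by 1.14 ± 0.06 on the log2 scale without histidine (adjusted p = 2.5e-15) and by 0.30 ± 0.05 without tryptophan (adjusted p = 5.3e-08). ERN1 (IRE1α), the sensor that splices it, was at 2884 and 3160, at 3484 and 3503 without histidine and at 9371 and 9478 without tryptophan. ERN1 rose by 0.22 ± 0.05 (adjusted p = 0.00090) and 1.63 ± 0.05 (adjusted p = 1.6e-67), and with no trend the call after histidine depletion was lost (adjusted p = 0.0632).

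ATF6, the sensor cut in the Golgi, held 4441 and 4567 normalized counts in untreated cells, 4270 and 4342 without histidine and 11022 and 11303 without tryptophan. Its histidine-depleted libraries lay just below the untreated ones and were not called (-0.06, 95% interval -0.16 to 0.05, adjusted p = 0.31), while it rose by 1.30 ± 0.05 without tryptophan (adjusted p = 4.9e-57). Under quantile normalization ATF6 was called lower after histidine depletion (-0.202, adjusted p = 0.000296). ATF6B, its paralogue, was lower without histidine at -0.30 ± 0.05 and not called without tryptophan at -0.04 (interval -0.13 to 0.05), where quantile normalization called it lower (-0.109, adjusted p = 0.00624). CREB3L2 (BBF2H7), a related factor released by cleavage, rose by 0.25 ± 0.05 without histidine and 1.14 ± 0.05 without tryptophan.

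In ER-associated degradation, all 10 members tested were higher after tryptophan depletion, and 8 were higher and 1 lower after histidine depletion. SEL1L, the adaptor of the ubiquitin ligase, was at 4385 and 4425 normalized counts in untreated cells, at 5123 and 5069 without histidine and at 17862 and 18218 without tryptophan. It rose 4.1-fold without tryptophan, a log2 fold change of 2.03 ± 0.05 (adjusted p = 3.9e-80), and by 0.22 ± 0.05 without histidine (adjusted p = 0.00033), a call that quantile normalization ended (0.0656, adjusted p = 0.103). The ligase itself, SYVN1 (HRD1), rose by 0.48 ± 0.05 and 1.03 ± 0.05. HERPUD1, which organises that complex, went from 6242 and 6322 to 8027 and 7841 without histidine and to 14759 and 14912 without tryptophan (0.35 ± 0.05 and 1.23 ± 0.05).

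DERL2, a rhomboid-like protein of the retrotranslocation channel, and the selenoproteins SELENOS (VIMP) and SELENOK, which recruit degradation factors to the membrane, had their larger change without histidine. SELENOS was at 3109 and 3303 normalized counts in untreated cells, at 8711 and 8650 without histidine and at 5166 and 5260 without tryptophan. SELENOK was at 885 and 1004, at 2092 and 2060 without histidine and at 1268 and 1294 without tryptophan. DERL2 was at 1269 and 1368, at 2785 and 2839 without histidine and at 1823 and 1831 without tryptophan. For each of the 3 the mean was highest without histidine. Their log2 fold changes were 1.45 ± 0.05, 1.15 ± 0.07 and 1.10 ± 0.06 without histidine and 0.69 ± 0.05, 0.43 ± 0.06 and 0.46 ± 0.06 without tryptophan.

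DERL1, the paralogue of DERL2, rose by 0.30 ± 0.05 and 0.63 ± 0.05, and under quantile normalization its call without histidine was lost (0.0347, adjusted p = 0.28). The mannosidase-like proteins that mark glycoproteins for degradation differed among themselves: EDEM3 rose by 0.32 ± 0.05 and 0.90 ± 0.05, EDEM1 was not called without histidine (0.10, 95% interval -0.01 to 0.21) and rose by 0.64 ± 0.05 without tryptophan, and EDEM2 moved in opposite directions. The value of EDEM1 without histidine was called higher when untreated replicate 2 was left out (0.133, adjusted p = 0.0208). EDEM2 was at 2726 and 2860 normalized counts in untreated cells, at 1788 and 1888 without histidine and at 4430 and 4329 without tryptophan. The log2 fold changes of EDEM2 were -0.59 ± 0.06 (adjusted p = 7.7e-10) and 0.64 ± 0.05 (adjusted p = 2.9e-25). DERL3 had 2 and 3 reads in untreated cells, 5 and 0 without histidine, and 1 and 1 without tryptophan, so that no difference was detectable at this depth.

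WFS1 (wolframin), an ER membrane protein that bears on calcium storage and on ATF6, fell without histidine and rose without tryptophan. It was at 1210 and 1383 normalized counts in untreated cells, at 360 and 418 without histidine and at 3010 and 3076 without tryptophan. The log2 fold changes were -1.73 ± 0.08 (adjusted p = 2.6e-15) and 1.23 ± 0.05 (adjusted p = 1.4e-46). The subunits of the Sec61 channel changed less. SEC61B rose by 0.35 ± 0.05 and 0.69 ± 0.05, and SEC61A1 by 0.55 ± 0.05 without tryptophan. Without histidine SEC61A1 was not called (0.09, 95% interval -0.03 to 0.20), and quantile normalization turned it to lower at -0.22 (adjusted p = 4.1e-05). It was called higher in edgeR (0.076, adjusted p = 0.0404) and without untreated replicate 2 (0.112, adjusted p = 0.00691).

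The depletions were then compared directly, on the reads of all 6 libraries scaled together. Relative to tryptophan depletion, 28 members were lower and 7 higher after histidine depletion, and 5 were not called. Of the 18264 genes tested, 38.0% were called lower and 38.7% higher. Past a log2 fold change of 1, 10 members were lower and 0 higher (25% and 0%, against 15.8% and 16.0% of all genes). The median of the members was -0.52, against 0.011 over all genes tested. The 10 were CLGN (-5.72 ± 0.08), WFS1 (-2.97 ± 0.07), SEL1L (-1.82 ± 0.04), DNAJC10 (-1.49 ± 0.04), ERN1 (-1.43 ± 0.05), PDIA4 (-1.41 ± 0.04), ATF6 (-1.37 ± 0.04), EDEM2 (-1.25 ± 0.05), CRELD2 (-1.20 ± 0.06) and HSPA5 (-1.03 ± 0.05).

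The 7 members higher after histidine depletion were XBP1 (0.83 ± 0.04, adjusted p = 4.5e-12), SELENOS (0.74 ± 0.04), SELENOK (0.70 ± 0.06), DERL2 (0.62 ± 0.05), DNAJB11 (0.50 ± 0.04), CALR (0.32 ± 0.04) and ERO1A (0.17 ± 0.04, adjusted p = 0.00082). All 7 belong to the 27 that rose in both depletions, of which 16 were lower after histidine depletion and 4 were not called. These 4, CANX, ERO1B, FKBP14 and TXNDC11, had differences of 0.08 (95% interval -0.02 to 0.18), 0.24 (-0.14 to 0.63), 0.07 (-0.06 to 0.20) and 0.0035 (-0.09 to 0.09), and the fifth, TXNDC5, -0.40 (-1.0 to 0.19). With a library left out in turn, ERO1B ranged from 0.163 to 0.326, FKBP14 from 0.00551 to 0.135 and TXNDC5 from -0.623 to -0.183. CANX was called higher by DESeq2 (adjusted p = 0.0161) and in a fit on the 4 depleted libraries alone (0.0137), and under quantile normalization its difference was -0.0282. That of TXNDC11 changed sign under quantile normalization, in edgeR and without histidine-depleted or tryptophan-depleted replicate 2. The small difference of DNAJC3 (-0.13, adjusted p = 0.011) lost its call, at values of a like size, when histidine-depleted replicate 2 (-0.104, adjusted p = 0.108) or tryptophan-depleted replicate 1 (-0.131, adjusted p = 0.074) or 2 (-0.127, adjusted p = 0.0814) was left out, and with no trend (-0.129, adjusted p = 0.103). The call of ERO1A was lost under quantile normalization (0.0331, adjusted p = 0.353).

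**Figure D3:**
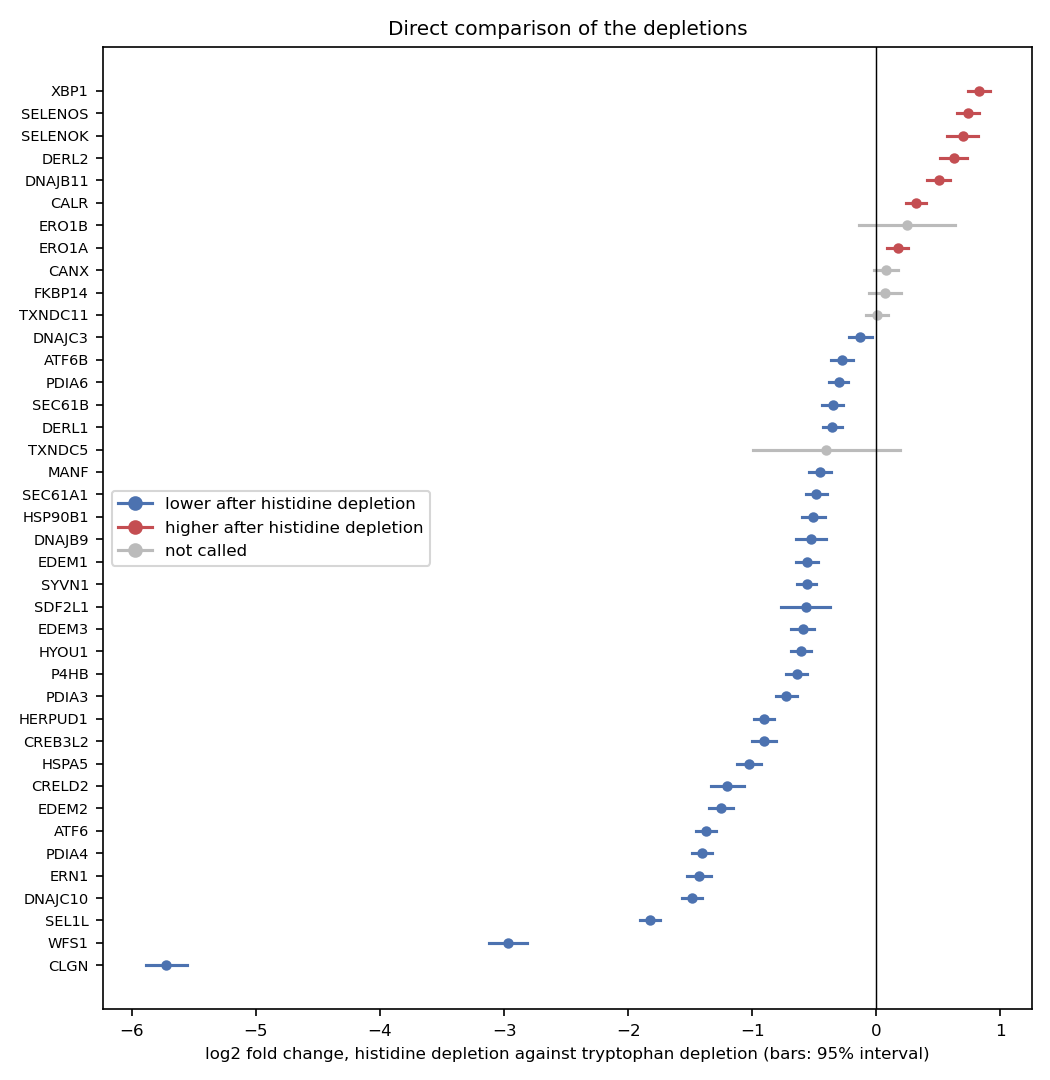
The log2 fold change of histidine depletion against tryptophan depletion for the 40 members tested, in rank order, with 95% intervals. CLGN lies at -5.72 and XBP1 at 0.83, and the 5 members in grey were not called.

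Levels were also compared between genes, per kb of the canonical transcript. In untreated cells P4HB was the highest, with 16503 normalized counts per kb, followed by CANX with 14595, HSP90B1 with 13397, XBP1 with 11601 and CALR with 10600.4. Without histidine CANX (27146) and XBP1 (25416) led. Without tryptophan HSPA5 (28527), which had ranked 8 in untreated cells, and P4HB (28514) led, and their library ranges overlapped. The per-kb levels of DERL3 and TXNDC5, below 12 in every condition, were the lowest in the set. In untreated cells ERO1B (9.79) was also below 12, and its library range overlapped that of TXNDC5, whose level is uncertain.

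An ERSE or ERSE-II stood before 11 members. Their calls are given as a description, beside 39.1% of all genes called higher and 38.2% lower without histidine, and 36.1% and 34.8% without tryptophan. The sets with and without these letters were not tested against each other. Of these, 8 were higher and 2 lower after histidine depletion and 11 higher after tryptophan depletion, with medians of 0.64 and 0.81. Of the 26 without such letters, 16 were higher and 6 lower after histidine depletion and 24 higher after tryptophan depletion, with medians of 0.24 and 0.74. CLGN and SEL1L, whose changes without tryptophan were the largest among the members, belong to the 26.

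In their coding sequence, the members held a median of 1.97% histidine codons and 1.42% tryptophan codons, against 2.44% and 1.08% over 13124 coding genes tested. DNAJB9, which rose in both depletions, has 9 histidine codons among 223 and 0 tryptophan codons. HSPA5 has 6 histidine and 2 tryptophan codons among 654, and CLGN 12 and 18 among 610. These counts come from the annotated canonical transcripts and describe the genes, not their translation here.

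The other genes of the pathway were taken from 6 lists with 127 genes, of which 126 were tested. After histidine depletion 64 were higher and 40 lower, with a median of 0.16, and after tryptophan depletion 84 and 25, with a median of 0.38. These are 50.8% and 31.7% after histidine depletion, against 39.1% and 38.2% of all genes, and 66.7% and 19.8% after tryptophan depletion, against 36.1% and 34.8%. Among 9 other sensors and transducers tested, 3 were higher and 4 lower without histidine (33.3% and 44.4%) and 6 and 2 without tryptophan (66.7% and 22.2%). EIF2AK3 (PERK) was lower without histidine at -0.25 ± 0.07 and higher without tryptophan at 0.80 ± 0.06. ERN2 (IRE1β), the form found in mucus-secreting epithelium, fell from 1241 and 1309 normalized counts to 177 and 195 without histidine (-2.76 ± 0.09) and had -0.16 ± 0.06 without tryptophan. CREB3, a factor cut like ATF6, rose by 1.66 ± 0.05 without histidine, CREB3L4 fell by 1.59 ± 0.08, and BHLHA15 (MIST1), a factor of secretory cells, rose by 1.98 ± 0.11 without tryptophan.

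In the list of the PERK arm with CHOP or ATF4 targets, 5 of 15 were higher and 6 lower without histidine, whereas 13 were higher and 1 lower without tryptophan (33.3% and 40% against 86.7% and 6.67%). Their medians were -0.08 and 1.06. PPP1R15A (GADD34), which restores translation by dephosphorylating eIF2α, was at 7829 and 7954 normalized counts in untreated cells, at 111972 and 108737 without histidine and at 14770 and 15288 without tryptophan. This rise without histidine, 3.81 ± 0.05 on the log2 scale (adjusted p = 2.4e-25), was the largest in the 6 lists. DDIT3 (CHOP), the pro-apoptotic factor of this arm, went from 1198 and 1177 to 2011 and 1806 without histidine (0.69 ± 0.06) and to 4758 and 4739 without tryptophan (1.99 ± 0.05), and 31.6% of its exon bases lie under a gene on the opposite strand.

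ATF4, which is regulated through its translation, had -0.28 ± 0.05 without histidine and was not called without tryptophan (0.01, adjusted p = 0.86). NUPR1 fell by 1.75 ± 0.09 without histidine and rose by 1.23 ± 0.05 without tryptophan. ATF3, a stress-induced repressor, rose by 1.49 ± 0.05 and 0.98 ± 0.05. VLDLR rose by 1.84 ± 0.07 and the hormone gene FGF21 by 3.19 ± 0.16 without tryptophan, and neither was called without histidine (-0.08 and 0.07).

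**Figure D4:**
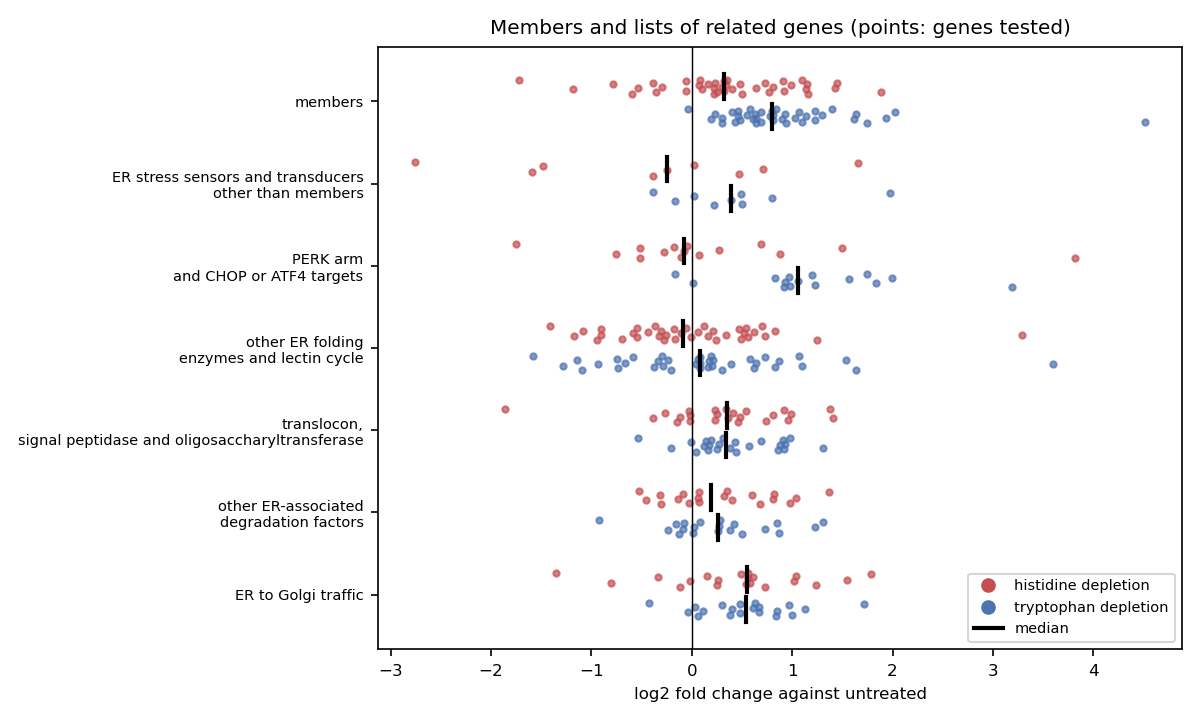
Log2 fold changes against untreated of the 40 members tested and of the genes in the 6 related lists, with a point for each gene and a black bar for the median, for histidine depletion (upper strip of each pair) and tryptophan depletion (lower strip). The medians of the PERK and CHOP or ATF4 list lie at -0.08 and 1.06, and those of the ER to Golgi list at 0.55 and 0.545.

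Of the 38 other folding enzymes, 15 were higher and 16 lower without histidine (39.5% and 42.1%, close to the shares of all genes) and 18 and 15 without tryptophan (47.4% and 39.5%), with medians of -0.08 and 0.09. The disulphide isomerase PDIA2, known from the pancreas, rose from 31.7 and 32.8 normalized counts to 404 and 407 without tryptophan (3.60 ± 0.16) and was not called without histidine (-0.17). ERP27, a disulphide isomerase relative without the active cysteines, moved the other way: it was at 45.9 and 40.8 in untreated cells, at 409 and 448 without histidine and at 18.1 and 16.5 without tryptophan (3.29 ± 0.14 and -1.28 ± 0.30). AGR2, the isomerase of mucin-secreting cells, had -0.26 ± 0.05 and 1.07 ± 0.05. SIL1, an exchange factor for HSPA5, rose by 1.63 ± 0.07 without tryptophan, TXNDC16 fell by 1.58 ± 0.13 there, FKBP9 fell by 1.41 ± 0.06 without histidine, and the oxidase QSOX1 rose by 1.24 ± 0.05 and 1.10 ± 0.05.

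Of 24 genes of the translocon, the signal peptidase and the oligosaccharyltransferase, 16 were higher and 5 lower without histidine (66.7% and 20.8%) and 20 and 2 without tryptophan (83.3% and 8.33%). SPCS1, a signal peptidase subunit, fell by 1.86 ± 0.06 without histidine and was not called without tryptophan (-0.0066), with 56.6% of its exon bases under an opposite-strand gene. SRPRA, the receptor of the signal recognition particle, rose by 1.38 ± 0.05 and 0.88 ± 0.05, and SEC11C, a catalytic subunit of the peptidase, by 0.81 ± 0.06 and 1.31 ± 0.05. SEC61A2 rose by 1.41 ± 0.09 and 0.92 ± 0.09. SRPRB had 0.98 ± 0.05 and SEC63 0.93 ± 0.05 without tryptophan.

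Among 20 other degradation factors, 10 were higher and 5 lower without histidine (50% and 25%) and 11 and 4 without tryptophan (55% and 20%). RNF5, a membrane-bound ubiquitin ligase, rose by 1.04 ± 0.05 and fell by 0.93 ± 0.06, in that order, and AUP1 had 0.98 ± 0.05 and -0.23 ± 0.05. FAF2, which recruits the ATPase VCP, rose by 1.37 ± 0.05 without histidine. UBE2J1, a conjugating enzyme, and ERLEC1, a lectin, rose by 1.31 ± 0.05 and 1.22 ± 0.05 without tryptophan.

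Of 20 genes of ER to Golgi traffic, 15 were higher and 4 lower without histidine (75% and 20%) and 16 and 1 without tryptophan (80% and 5%). The COPII coat genes SEC24A (1.78 ± 0.05 without histidine, 1.00 ± 0.05 without tryptophan) and SEC24D (0.73 ± 0.05 and 1.72 ± 0.05) differed in which depletion had the larger change, and the direct differences were 0.77 ± 0.04 and -1.0 ± 0.04. MCFD2, a cargo receptor subunit, rose by 1.54 ± 0.05 without histidine, where KDELR3, a receptor that retrieves ER chaperones, fell by 1.36 ± 0.08. SAR1B, the GTPase that starts coat assembly, rose by 1.13 ± 0.05 without tryptophan.

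In the direct comparison, 43 of the 126 genes had the higher and 64 the lower level without histidine, with a median of -0.23 (34.1% and 50.8%, against 38.7% and 38.0% of all genes). In the PERK and CHOP or ATF4 list 11 of 15 were lower, and the 2 that were higher included PPP1R15A (2.88 ± 0.04).

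The labelled cell type was checked on markers. The epithelial genes EPCAM, CDH1, KRT8, KRT18, KRT20, VIL1 and LGALS4 were at 9735 normalized counts or more in every library, and the summed level of 9 such genes was 428770 to 455150 in untreated cells, 525650 to 554050 without histidine and 598800 to 602050 without tryptophan. CDX1 was at 0 without histidine and at most at 21.9 elsewhere. Over all libraries CDX2 averaged 342 reads, against 262030 for KRT8 and 121671 for KRT18, which weigh most in the sum. Of the 11 leukocyte, fibroblast and endothelial markers, PTPRC, CD3E, COL3A1 and CDH5 were at 0 to 2.98 normalized counts in every library. The 5 leukocyte markers summed to 184 to 218, 157 to 162 and 380 to 388 in the 3 conditions. The 3 fibroblast markers summed to 72.1 to 73.6, 28.0 to 38.7 and 53.4 to 68.7, and the 3 endothelial ones to 40.8 to 55.7, 50.6 to 50.9 and 26.6 to 28.8. The part of these levels in the results on the ER genes was not tested.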

How the data were processed

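Poly(A) RNA of HT29 cells was sequenced as 6 stranded libraries, 2 per condition. Per the labels and methods, the authors aligned reads to GRCh38 with STAR 2.7.10a and counted them on exons of protein-coding genes of an earlier gencode release with htseq-count 2.0.5. The tables, however, list 60676 genes, and genes of other types, such as the pseudogene HSPA5P1, have reads in them, so that the all-gene shares are not limited to protein-coding genes. The deposited values are a signal, counts divided by DESeq2 size factors, in 1 table per depletion with the same untreated libraries. Use of strand and of molecular identifiers in counting is not given in the sources used here.

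Dividing a library's values by the worth of 1 read gave whole reads in 100% of cases, within 0.001 read. The untreated reads were identical in both tables, and 0 columns were left unused. Of 60676 identifiers, 60357 were found in gencode 44.

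Depletions were tested within their table with limma 3.58.1 (trend, two-sided, R 4.3.3) on log2(normalized count + 1). Genes entered at a mean of 10 or more, and p-values were adjusted over all genes tested (Benjamini-Hochberg, threshold 0.05). Fold changes on this scale are understated for low genes. For the direct comparison the reads of 6 libraries were scaled jointly by median of ratios. Library values printed are on that joint scale. Replicates differed beyond counting noise (chi-square per degree of freedom 8.77 untreated, 4.03 histidine, 1.85 tryptophan). On the recovered reads, DESeq2 1.42.0 and edgeR 4.0.16 (TMM) served as alternatives. The others were a pseudocount of 0.5 or 8, a minimum mean of 0 or 50, quantile normalization, limma without its trend, a replicate block, other sets of libraries and leaving out each library.

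All 41 members are reported. Values in every library are given for the 10 with the largest change in each comparison and a mean of at least 100 in the higher group, and for 10 fixed members. Up to 3 genes of each related list by the same rule, and 5 fixed ones, are named where space allowed. Members and lists were chosen with earlier results of these data known. The code was tested on simulated counts. Promoters were RefSeq's (GRCh38.p14), and codons were counted in canonical transcripts with Python 3.11.15.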

Additional observations from a re-analysis of the deposited data

Results flagged for a closer look

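Members called lower after histidine depletion and higher after tryptophan depletion numbered 7. Their direct difference also passed limma's test, but calls in opposite directions against the same untreated libraries all but fix that outcome, so that it is no further support. The log2 fold change of histidine against tryptophan depletion was -5.72 for CLGN, -2.97 for WFS1, -1.49 for DNAJC10, -1.41 for PDIA4, -1.25 for EDEM2, -1.2 for CRELD2 and -0.57 for SDF2L1. All 4 depleted libraries went in the direction of their group for each of the 7, which the choice of these members by their calls also all but fixes. The call of SDF2L1 against untreated was lost in several settings in both depletions. No group of libraries was large enough for a test of outlying samples.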

How the results depend on the processing

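Over 14 alternatives, 28 of the 40 members tested kept their direction and their side of the threshold after histidine depletion and 38 after tryptophan depletion, and 36 did over those of the direct comparison. The other members were 12 (ATF6, DERL1, EDEM1, ERN1, HSP90B1, P4HB, PDIA3, PDIA6, SDF2L1, SEC61A1, SEL1L and TXNDC5), 2 (ATF6B and SDF2L1) and 4 (CANX, DNAJC3, ERO1A and TXNDC11). Quantile normalization moved the members' median log2 fold change to 0.126 after histidine depletion, 0.734 after tryptophan depletion and -0.597 in the direct comparison, and 1 member, ATF6B, was then called lower after tryptophan depletion. It reversed PDIA3 (-0.0744), P4HB (-0.164), SEC61A1 (-0.215) and TXNDC5 (-0.0233) after histidine depletion, and CANX (-0.0282) and TXNDC11 (-0.0713) in the direct comparison. It shifted genes with a mean of at least 1000 by -0.093 after histidine depletion, -0.0053 after tryptophan depletion and -0.072 in the direct comparison. No setting moved the median of all genes by over 0.1. In edgeR with TMM the direct difference of TXNDC11 was -0.0178. With each library left out in turn, the median after tryptophan depletion ranged from 0.787 to 0.814, TXNDC5 after histidine depletion from -0.154 to 0.292 and TXNDC11 in the direct comparison from -0.0106 to 0.0177. Values not called that moved by over 1.5 times were also those of ATF6 (-0.0789 to -0.0328) and EDEM1 (0.0611 to 0.133) after histidine depletion and of TXNDC5 after tryptophan depletion (0.263 to 0.648). Where a left-out library leaves 1 in a group, that library is assumed to vary like the others. Beyond the settings named, the cause of these changes was not tested.

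With a replicate block, 27 members were higher and 8 lower after histidine depletion, 38 and 0 after tryptophan depletion, and 7 and 28 in the direct comparison, as without it. Deviations of libraries with the same number correlated at 0.117 (untreated and histidine), -0.053 (untreated and tryptophan) and -0.104 (both depletions) over 12480 genes, so that the numbers were not taken as pairs. A crossed replicate block for both depletions, chosen after seeing the data, called 8 members higher and 28 lower. TXNDC5 could not be fitted with a mean of at least 50. Genes under about 50 counts are limited by depth. Among the members these are TXNDC5, DERL3 and untreated ERO1B. Among the genes named from the related lists, PDIA2 and FGF21 were as low in untreated and histidine-depleted cells. ERP27 was as low in untreated and tryptophan-depleted cells, and the fold changes of these genes rest on such low groups.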
